A study of Mus musculus with 6 samples.

Results

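The hypoxia-inducible factor (HIF) genes described here are Hif1a and Hif3a, which encode HIF alpha subunits, and Vhl, Egln3 and Cited2, which encode regulators of HIF. They were chosen by gene symbol, and all 5 had a row among the 4162 genes of the deposited count table. RNA sequencing compared CD4+ T cells of 3 B6 mice with intact UTX (WT) and 3 B6 mice lacking UTX in T cells (UTX TCD). UTX, encoded by Kdm6a, removes methyl groups from lysine 27 of histone H3. Naive CD4+ T cells were isolated from spleen with magnetic beads and all 6 cultures were stimulated for 48 h with plate-coated anti-CD3 and dissolved anti-CD28, so no unstimulated or hypoxic group enters the comparison. The sources used here name neither the Cre driver nor the deleted exons, and give no age or sex for the mice. The comparison asks which genes of the oxygen-sensing machinery differ when activated T cells lack UTX, a question the series' title poses for T cells that cause colitis.

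HIF is a transcription factor made of an oxygen-regulated alpha subunit and the stable beta subunit ARNT. When oxygen is plentiful, prolyl hydroxylases of the EGLN family modify the alpha subunit, the VHL ubiquitin ligase binds the modified form, and the proteasome destroys it. When oxygen is scarce, HIF-1 alpha accumulates, binds short hypoxia response elements in DNA and recruits the coactivators p300 and CBP, which CITED2 can occupy in its place. Activated T cells also accumulate HIF-1 alpha in normal oxygen, because T cell receptor signals raise its transcription and translation, and HIF-1 then drives glycolytic genes. Egln3 and Cited2 are themselves known targets of HIF-1. The counts measure RNA and carry no information on the hydroxylation or amount of the HIF protein.

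The core of the hypoxia response element (ACGTG or GCGTG, searched on both strands) occurred within the 250 bases before the RefSeq start (GRCm38.p6) of 4 of the 5 genes: Hif1a, Hif3a, Egln3 and Cited2. Among 32851 promoter windows of that length, 38.6% held it, and 63.8% of the 9178 windows with a GC content of 60% or more. The GC content was 66.4% for Hif1a, 62% for Hif3a, 62% for Vhl, 50.8% for Egln3 and 66.8% for Cited2. In Hif1a and Cited2 the letters form CACGTG, an E-box that reads ACGTG on both strands and that 6.02% of all windows held. Vhl held no match, so the core of the hypoxia response element is not a feature that all 5 genes share. The core is also common among windows with a GC content of 60% or more. Whether 4 of 5 genes exceeds the share among such windows was not tested. The stretches around the matches run 5′ to 3′ on the gene's own strand, with the matched letters in capitals.
Hif1a, chr12:73907712-73907821, plus strand: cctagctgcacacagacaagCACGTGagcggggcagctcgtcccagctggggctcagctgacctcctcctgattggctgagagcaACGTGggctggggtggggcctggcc
Hif3a, chr7:17062589-17062677, minus strand: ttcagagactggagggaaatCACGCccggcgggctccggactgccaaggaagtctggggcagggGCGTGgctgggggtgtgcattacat
Egln3, chr12:54204079-54204123, minus strand: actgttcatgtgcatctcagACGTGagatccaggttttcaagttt
Cited2, chr10:17723055-17723100, plus strand: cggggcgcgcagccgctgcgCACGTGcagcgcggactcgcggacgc
The first match lies 135 bases before the start in Hif1a, 230 in Hif3a, 229 in Egln3 and 153 in Cited2. A match of these letters is a description of the sequence, and binding was not measured.

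Column totals over the listed genes ran from 8363326 to 10288306 counts. Levels are given in CPM, counts scaled to a common total over the listed genes after TMM scaling, and fold changes are UTX TCD over WT. The listed genes had apparently been selected on the difference between genotypes: of 4118 genes tested, 20 had a log2 fold change within 0.1 of 0. At an adjusted p under 0.05 with edgeR's quasi-likelihood test, 68.1% of tested genes passed, with 1692 (41.1%) higher in UTX TCD cells and 1111 (27.0%) lower. With upper-quartile scaling these were 1742 and 725, and with a scaling that sets the emptiest fold change to 0 they were 1547 and 1832. UTX TCD replicate 2 was the highest or lowest library of its genotype for 82.6% of tested genes, against 66.8% for replicate 1 and 50.6% for replicate 3. Kdm6a had 281 to 286 CPM in WT and 179 to 207 CPM in UTX TCD libraries (log2 fold change -0.56 ± 0.09 SE, edgeR adjusted p = 0.0029). This is a count per gene, and reads on the deleted exons, which are not named, were not examined. The 3 T cell markers with a row of 10 went different ways. Cd2 rose from 492 to 611 CPM in WT to 914 to 1675 CPM in UTX TCD cells (1.10 ± 0.23 SE, edgeR adjusted p = 0.0078). Lck had 1490 to 1535 CPM in WT and 1348 to 1416 CPM in UTX TCD cells. Its groups did not overlap, but it did not pass (-0.13 ± 0.07, edgeR adjusted p = 0.12). Thy1 fell from 718 to 887 CPM to 42.9 to 77.6 CPM (-3.83 ± 0.23, edgeR adjusted p = 1.9e-04). For other cell types, the summed markers with a row were 437 to 533 CPM in WT and 478 to 770.1 CPM in UTX TCD cells for B cells (2 of 9 genes), and 57.9 to 90.6 and 27.4 to 31.8 CPM for NK cells (3 of 6). The NK markers did not move together: Nkg7, which makes up most of that sum in WT cells, fell (-2.02 ± 0.21), Klrd1 rose (1.40 ± 0.36), and Prf1 did not pass (0.60 ± 0.26). Cd8b1, 1 of 2 CD8 T cell markers, had 11.6 to 14.5 CPM in WT and 31.5 to 56.2 CPM in UTX TCD cells, and the myeloid and erythroid markers, Cd3e and Cd4 were not analysed here. The part of other cells in the results was not tested, and in bulk RNA fewer cells of a type and less RNA per cell cannot be told apart.

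Of the 5 genes, Hif1a was higher in UTX TCD cells, Hif3a, Vhl and Cited2 were lower, and Egln3 did not pass the test. That is 4 of 5 genes called, where 68.1% of tested genes were. It is 1 gene higher, where 41.1% of tested genes were, and 3 lower, where 27.0% were. The groups did not overlap in 4 of the 5 genes, which is close to the 85.8% of all tested genes. In a table selected in this way, calls among the listed genes are the rule, so the count of calls says little about these genes. Their direction, size and spread are described below. Selection on the difference can also enlarge fold changes, and neither they nor their intervals were corrected for it. The plot of levels by library shows the value of each gene in each library.

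**Figure D1:**
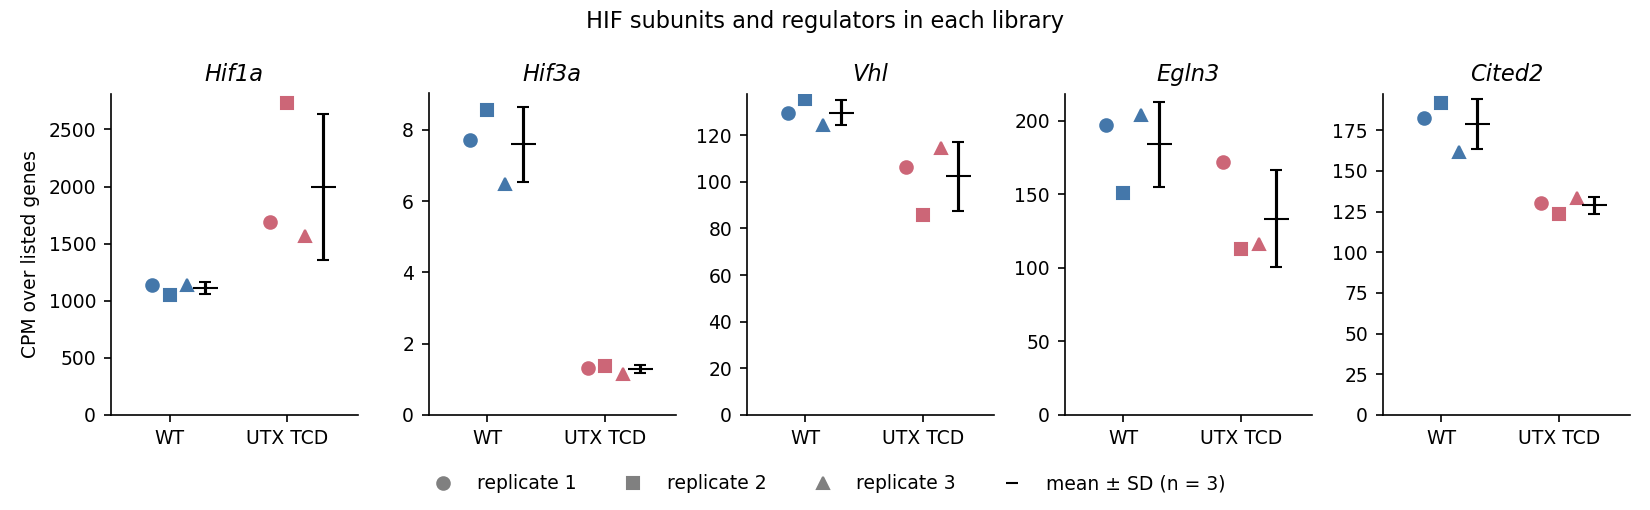
CPM over the listed genes (vertical axes from 0, a separate scale for each gene) in each WT (blue) and UTX TCD (red) library, with symbols for the replicate and black bars for the mean ± SD of 3 libraries. Hif1a lay at 1048 to 1140.1 CPM in WT and 1570.3 to 2730.5 CPM in UTX TCD libraries, and only the Egln3 groups overlapped.

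Hif1a encodes HIF-1 alpha, the subunit that oxygen and T cell activation regulate. It lies on chromosome 12 from 73901375 to 73947530 on the plus strand (ENSMUSG00000021109, GRCm38), and its RefSeq start used above lies inside that interval. Its levels were 1138, 1048 and 1140.1 CPM in WT replicates 1 to 3 and 1693, 2730.5 and 1570.3 CPM in UTX TCD replicates 1 to 3. Every UTX TCD library was above every WT library, and replicate 2 stood above the other UTX TCD libraries. The log2 fold change was 0.85 ± 0.20 (SE, 95% interval 0.38 to 1.31, edgeR adjusted p = 0.012), a 1.80-fold rise. The SD was 4.77% of the mean in WT and 31.9% in UTX TCD cells. UTX TCD libraries also had the wider spread over the whole table, so this is not particular to Hif1a. UTX TCD replicate 2 had 1.67 times the mean of the other UTX TCD libraries, and without it the log2 fold change was 0.55 (edgeR adjusted p = 0.0013). Hif1a did not pass without WT replicate 2 (0.81, edgeR adjusted p = 0.051), nor when all 21900 annotated protein-coding genes were counted as tests (edgeR adjusted p = 0.061). By level, Hif1a ranked 143 of 4118 tested genes in WT and 45 in UTX TCD cells. Its exons share 330 bases with the antisense gene Gm15283 and 148 with Gm49321 on the same strand, together a small part of its 5896 exon bases.

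Hif3a encodes HIF-3 alpha, which shares the DNA-binding and dimerization domains of the other alpha subunits. A splice form of it, IPAS, is known to hold HIF-1 alpha away from DNA. It lies on chromosome 7 from 17031507 to 17062427 on the minus strand (ENSMUSG00000004328), with 4 annotated transcripts that a count per gene cannot tell apart. It was read 78, 79 and 57 times in WT replicates 1 to 3 and 11, 13 and 11 times in UTX TCD replicates 1 to 3. These are low counts, and the exact 95% Poisson interval of 11 reads is 5.49 to 19.7 reads, which covers counting error only. The counts correspond to 7.73, 8.57 and 6.47 CPM in WT and 1.33, 1.37 and 1.15 CPM in UTX TCD libraries. The UTX TCD libraries lay close together and far below WT. The log2 fold change was -2.55 ± 0.29 (SE, 95% interval -3.22 to -1.89, edgeR adjusted p = 0.0012), a level 5.88-fold lower. By fold change Hif3a ranked 57 from the lowest of 4118 tested genes, and it passed in all 15 alternatives, with log2 fold changes from -2.66 to -2.46. UTX TCD replicate 2, which stood apart for Hif1a, had 1.11 times the mean of the other UTX TCD libraries for Hif3a.

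Vhl encodes the substrate-binding subunit of the ubiquitin ligase that captures hydroxylated HIF alpha. It lies on chromosome 6 from 113623959 to 113631633 on the plus strand (ENSMUSG00000033933). Its levels were 129, 135 and 124 CPM in WT replicates 1 to 3 and 107, 85.9 and 115 CPM in UTX TCD replicates 1 to 3. The groups did not overlap, and UTX TCD replicate 2 was the lowest library. The log2 fold change was -0.34 ± 0.12 (SE, 95% interval -0.62 to -0.07, edgeR adjusted p = 0.036). This was the smallest difference of the 5 genes, and its call was lost in 7 of 15 alternatives, among them leaving out any 1 WT library (-0.35, -0.31 and -0.38 without WT replicates 1, 2 and 3). DESeq2 gave -0.30 (adjusted p = 0.053). The values without each library and under each alternative are marked in the plot of alternatives.

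Egln3 encodes PHD3, a prolyl hydroxylase that HIF-1 induces and that modifies HIF alpha in turn. It lies on chromosome 12 from 54178981 to 54203860 on the minus strand (ENSMUSG00000035105). Its levels were 197, 151 and 204 CPM in WT replicates 1 to 3 and 172, 113 and 116 CPM in UTX TCD replicates 1 to 3. WT replicate 2 lay below UTX TCD replicate 1, so the groups overlapped. The log2 fold change was -0.46 ± 0.19 (SE, 95% interval -0.90 to -0.03), and the edgeR adjusted p was 0.056. The estimate was about as large as that of Cited2, but the SD was 15.7% of the mean in WT and 24.8% in UTX TCD cells. Egln3 passed in 4 of 15 alternatives, including the one without UTX TCD replicate 1 (-0.68, edgeR adjusted p = 0.011) and limma-voom (-0.48, adjusted p = 0.049).

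Cited2 encodes a transcriptional regulator that binds the same domain of p300 and CBP as HIF-1 alpha. It lies on chromosome 10 from 17723218 to 17725674 on the plus strand (ENSMUSG00000039910). Its levels were 183, 192 and 162 CPM in WT replicates 1 to 3 and 130.02, 123 and 133 CPM in UTX TCD replicates 1 to 3. All UTX TCD libraries were below WT, and their SD was 3.92% of the mean, the smallest of the 5 genes in that genotype. The log2 fold change was -0.47 ± 0.09 (SE, 95% interval -0.69 to -0.26, edgeR adjusted p = 0.0062), a 1.39-fold fall. It passed in all 15 alternatives, at -0.55 to -0.39. Cited2 and Hif3a were the members that passed under every alternative run.

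**Figure D2:**
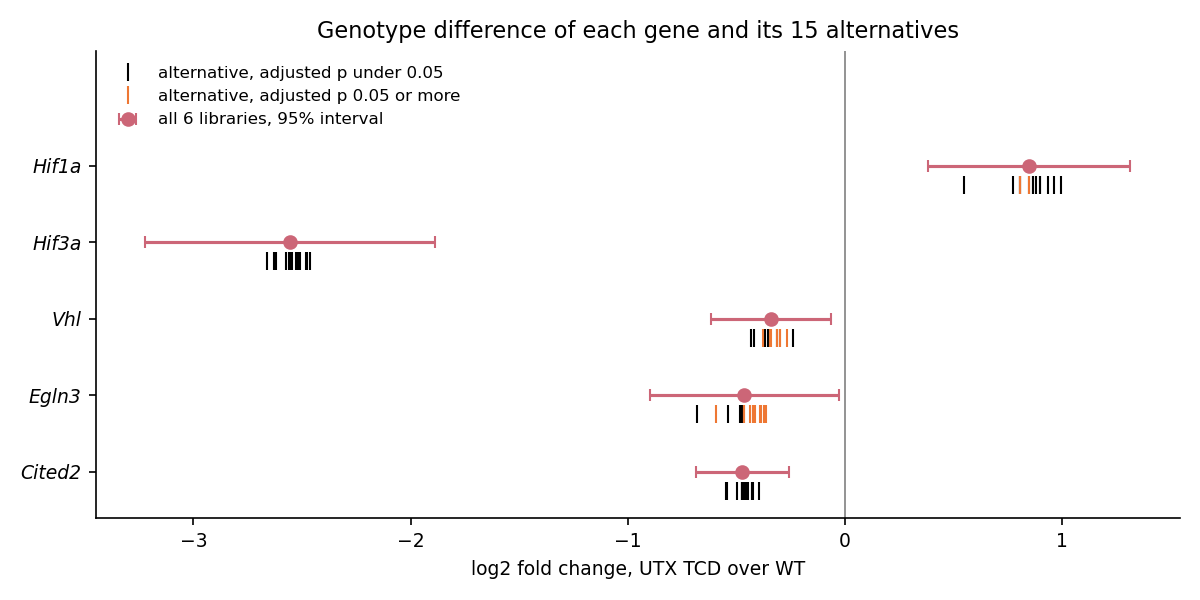
Log2 fold change of UTX TCD over WT (horizontal axis) for each gene. Red points with bars are the estimate from all 6 libraries with its 95% interval, and ticks below are the 15 alternative settings, black where the adjusted p was under 0.05 and orange where it was not. All ticks of a gene lie on the same side of 0.

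The 5 genes sat on different sides of a nearly empty zone around 0. The log2 fold change of Hif1a was above that of 83.1% of tested genes. Cited2 was above 15.1%, Egln3 above 15.5% and Vhl above 24.3%, so these 3 genes lay within the bulk of genes that were lower. Hif3a was above 1.36%. The median over all tested genes was -0.15.

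**Figure D3:**
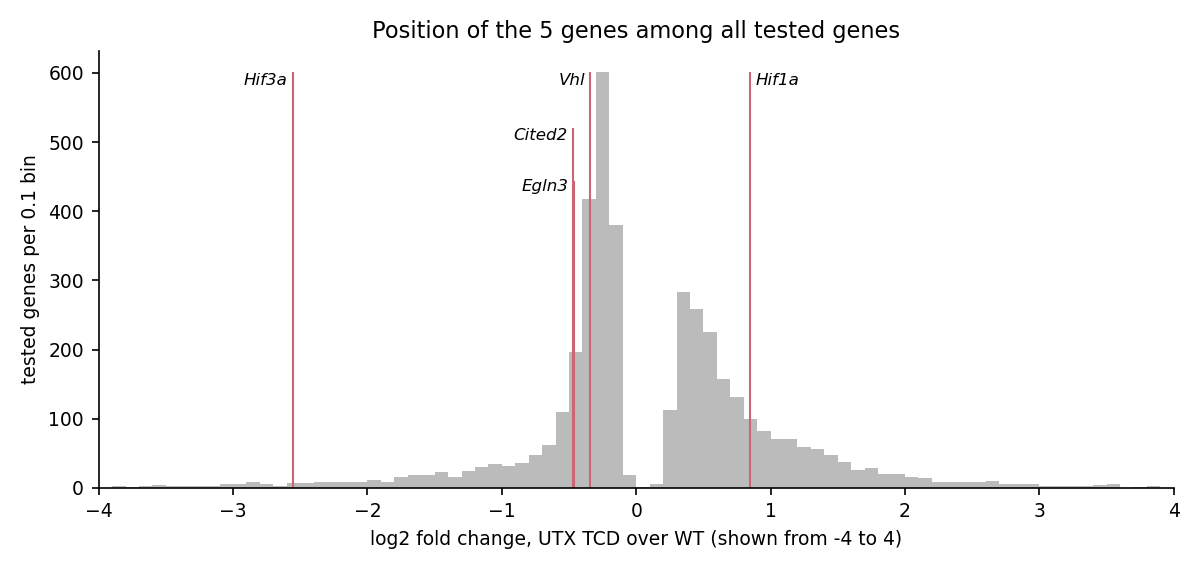
Number of tested genes in bins of 0.1 log2 fold change (UTX TCD over WT), shown from -4 to 4, with red lines at the 5 genes. Few genes lie within 0.1 of 0, and the lines of Vhl (-0.34), Egln3 (-0.46) and Cited2 (-0.47) stand in the tall left peak while Hif3a (-2.55) stands in the left tail.

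Levels were also compared between genes per kilobase, over all exon bases annotated in GENCODE vM21, since longer transcripts give more reads. In WT cells Hif1a had 188 ± 8.98 CPM per kilobase (SD, n = 3). Cited2 had 72.7 ± 6.23, Egln3 69.1 ± 10.9, Vhl 43.3 ± 1.85 and Hif3a 1.13 ± 0.16 CPM per kilobase. In UTX TCD cells the order was the same, with Hif1a at 339 ± 108, Cited2 at 52.4 ± 2.06, Egln3 at 50.1 ± 12.4, Vhl at 34.2 ± 4.94 and Hif3a at 0.19 ± 0.02 CPM per kilobase. Cited2 and Egln3 did not differ beyond their spread in either genotype. Hif1a was thus the most and Hif3a the least abundant of the 5 transcripts in every library. The exon lengths assume that the authors' counting used similar gene models.

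Ratios of reads within a library do not depend on the scaling between libraries, so Hif1a was set against each regulator directly. There were 8.80, 7.73 and 9.16 Hif1a reads per Vhl read in WT replicates 1 to 3 and 15.9, 31.8 and 13.7 in UTX TCD replicates 1 to 3. Per Egln3 read there were 5.77, 6.95 and 5.60 in WT and 9.86, 24.2 and 13.5 in UTX TCD libraries. Per Cited2 read there were 6.24, 5.46 and 7.04 in WT and 13.02, 22.2 and 11.8 in UTX TCD libraries. In each of these ratios every UTX TCD library exceeded every WT library. Hif1a was already apart and higher in UTX TCD cells, while Vhl, Cited2 and Hif3a were apart and lower. The separation of their ratios, and with it the permutation result below, was fixed by those levels. Egln3 overlapped between genotypes, so the separation of the Egln3 ratio is not a result about Egln3. The share of all tested genes whose ratio to Hif1a separates in this way was not computed. The mean log2 ratio rose by 1.16 against Vhl (2.23-fold), by 1.28 against Egln3 (2.43-fold), by 1.27 against Cited2 (2.42-fold) and by 3.32 against Hif3a (9.95-fold). Each of the 4 ratios gave p = 0.1 in a two-sided exact permutation test, also after Benjamini-Hochberg adjustment, which is the smallest value that 3 libraries against 3 allow. Without UTX TCD replicate 2 the differences were 0.79 against Vhl, 0.93 against Egln3, 1.00 against Cited2 and 3.12 against Hif3a. The ratios use the same reads as the fold changes above and are no separate evidence.

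**Figure D4:**
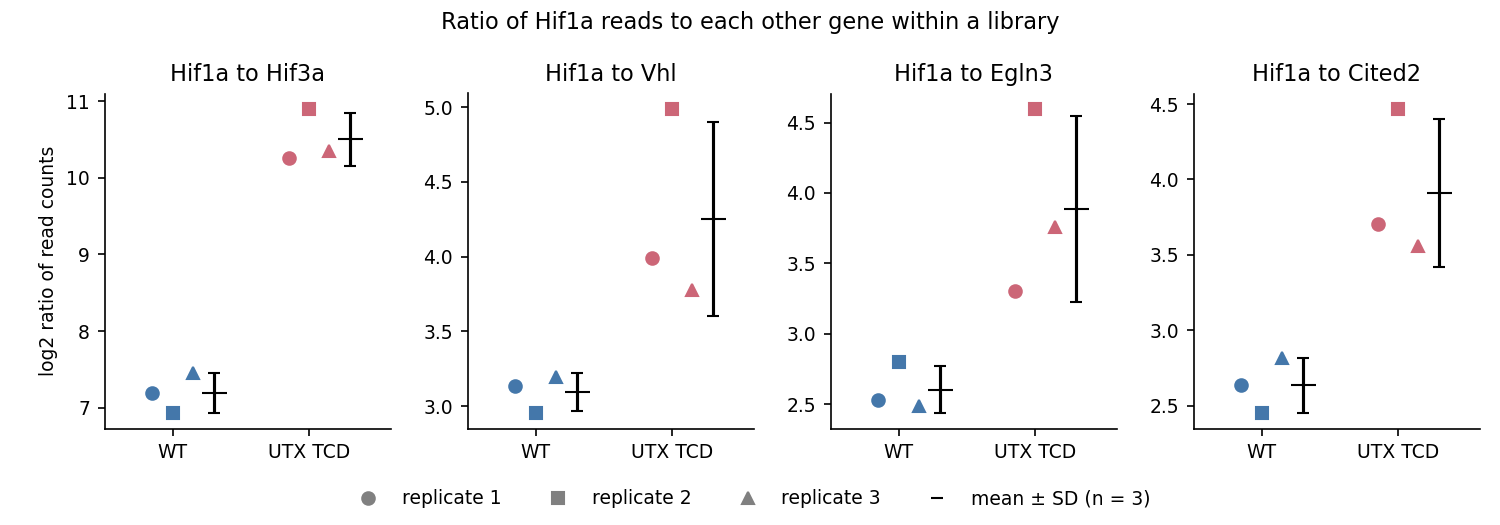
Log2 ratio of Hif1a read counts to those of Hif3a, Vhl, Egln3 and Cited2 in each library, with 0.5 added to each count (vertical axes do not start at 0). Symbols mark the replicates and black bars the mean ± SD of 3 libraries. In all 4 panels the UTX TCD libraries (red) lie above the WT libraries (blue), with UTX TCD replicate 2 highest. For Hif3a, Vhl and Cited2 this separation follows from the levels, which did not overlap between genotypes.

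UTX TCD replicate 2 held the highest Hif1a level and the lowest Vhl, Egln3 and Cited2 levels of its genotype. Relative to the mean of UTX TCD replicates 1 and 3 it had 0.78 times the Vhl, 0.78 times the Egln3 and 0.94 times the Cited2 level. The same library held the highest UTX TCD value for 71.3% of all genes called higher, so its position for Hif1a was common among them. It held the lowest UTX TCD value for 42.7% of all tested genes, so its position for Vhl, Egln3 and Cited2 was not rare either.

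Other genes of the HIF system were taken from lists by role. Of the subunit, hydroxylase and coactivator lists, Epas1, Arnt, Egln1, Ep300 and the others beside the members were not analysed here. Of 5 other genes that act on HIF alpha stability, 2 were higher (41.1% over all tested genes), 1 was lower (27.0%) and 2 did not pass, shares near those of the table. Their median log2 fold change was -0.30 against -0.15 over all tested genes. Usp28, a deubiquitinase known to stabilise HIF-1 alpha, rose from 65.2 ± 0.83 to 95.1 ± 8.08 CPM (0.55 ± 0.10 SE, edgeR adjusted p = 0.0052). Os9, a lectin of the endoplasmic reticulum, rose by 0.29 ± 0.10 (edgeR adjusted p = 0.035). Nedd8, the ubiquitin-like protein that activates cullins such as that of the VHL ligase, fell from 306 ± 4.15 to 246 ± 26.5 CPM (-0.31 ± 0.10, edgeR adjusted p = 0.026). Siah1b, of the SIAH ubiquitin ligases, was at -0.44 ± 0.18 and the chaperone gene Hsp90aa1, whose product protects HIF-1 alpha, at -0.30 ± 0.13, and neither passed (edgeR adjusted p = 0.059 and 0.067). The calls of Os9 and Nedd8 were lost when any 1 WT library was left out, and that of Os9 also without UTX TCD replicate 3. Siah1b (-0.58) and Hsp90aa1 (-0.40) passed when UTX TCD replicate 1 was left out, and without UTX TCD replicate 2 Hsp90aa1 passed at -0.18 and Os9 was at 0.19. The SIAH paralogs may share reads.

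Hif1a transcription and translation are known to depend on NF-kappaB and on PI3K and mTOR signalling. Of 6 tested genes in a list of such inputs, 2 were higher (41.1% over all tested genes), 1 was lower (27.0%) and 3 did not pass, which does not set the list apart from the table. The median log2 fold change was 0.13 against -0.15 over all tested genes. Pik3cd, the PI3K catalytic subunit delta of leukocytes, rose from 821 ± 124 to 1375 ± 161 CPM (0.74 ± 0.13 SE, edgeR adjusted p = 0.0051). Pik3r1, a regulatory subunit, rose by 0.46 ± 0.14 (edgeR adjusted p = 0.023). Nfkb1, the NF-kappaB p105 and p50 gene, fell by 0.27 ± 0.08 (edgeR adjusted p = 0.024). Ddit4, an mTORC1 inhibitor gene, was at 0.56 ± 0.24, Eif4e, the cap-binding translation factor, at -0.23 ± 0.09 and Rptor, the mTORC1 scaffold, at -0.20 ± 0.09, and none of them passed (edgeR adjusted p = 0.062, 0.051 and 0.075). Pik3cd kept its call in all 15 alternatives, but the counts of this list moved with single libraries, as did those of the whole table. Leaving out any 1 WT library gave 1 gene higher and 0 lower in this list. Over all tested genes 812 were then higher and 402 lower without WT replicate 1. The numbers were 730 and 351 without WT replicate 2, and 1195 and 544 without WT replicate 3. Leaving out UTX TCD replicate 1 or 2 gave 3 higher and 3 lower, and leaving out replicate 3 of that genotype gave 3 higher and 0 lower. Gap-centred scaling gave 2 higher and 3 lower in this list, and 1547 higher and 1832 lower over all tested genes. Ddit4 passed without any 1 UTX TCD library and with DESeq2, and was at 0.19 without UTX TCD replicate 2 (edgeR adjusted p = 0.040), where Pik3r1 was at 0.28.

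Of 46 symbols listed as known HIF target genes, 14 had a tested row. The list leaves out Egln3 and Cited2, named above as known HIF-1 targets. Their estimates were below 0 (-0.46 and -0.47), and they do not enter the counts that follow. Of these 14, 9 were higher (41.1% over all tested genes), 2 were lower (27.0%) and 3 did not pass, and the median log2 fold change was 0.44 against -0.15 over all tested genes. Ndrg1, a stress-responsive gene, had 39.5, 41.4 and 44.04 CPM in WT replicates 1 to 3 and 69.9, 120.4 and 82.6 CPM in UTX TCD replicates 1 to 3. Its log2 fold change was 1.13 ± 0.20 (SE, edgeR adjusted p = 0.0047), and 0.87 without UTX TCD replicate 2. The groups were apart, as for 85.8% of tested genes. UTX TCD replicate 2 was the highest of its genotype, as for 71.3% of all genes called higher, so neither trait sets Ndrg1 apart. Also higher were Tet1, a DNA demethylase gene, at 0.99 ± 0.15, Pnrc1, a nuclear receptor coactivator gene, at 0.71 ± 0.09 and Bnip3l, which encodes a mitophagy receptor, at 0.61 ± 0.11. Of the genes that were lower, Jmjd6 was at -0.28 ± 0.10 and the glycolytic gene Gapdh at -0.43 ± 0.13. The glycolytic gene Hk2 was at -0.24 ± 0.10 and Bhlhe40, a transcription factor gene, at -0.23 ± 0.19, and neither passed (edgeR adjusted p = 0.057 and 0.28). Hk2 passed without UTX TCD replicate 1 (-0.31). Bhlhe40 was at -0.47 without UTX TCD replicate 2 (edgeR adjusted p = 0.021) and at -0.05 without UTX TCD replicate 3. Gapdh has many near-identical pseudogenes, so its count (101 ± 5.79 CPM in WT cells) is uncertain. Without WT replicate 1 or 2 the list had 5 higher and 0 lower genes, and without WT replicate 3 it had 6 and 0. With all protein-coding genes counted as tests it had 4 and 0. Calls over the whole table fell as well, from 1692 higher and 1111 lower to 812 and 402 without WT replicate 1. They fell to 730 and 351 without WT replicate 2, and to 1195 and 544 without WT replicate 3. With all protein-coding genes counted as tests they were 630 and 296. The 41.1% and 27.0% above are therefore not the shares to set beside these counts. The plot of pathway genes sets these values side by side.

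**Figure D5:**
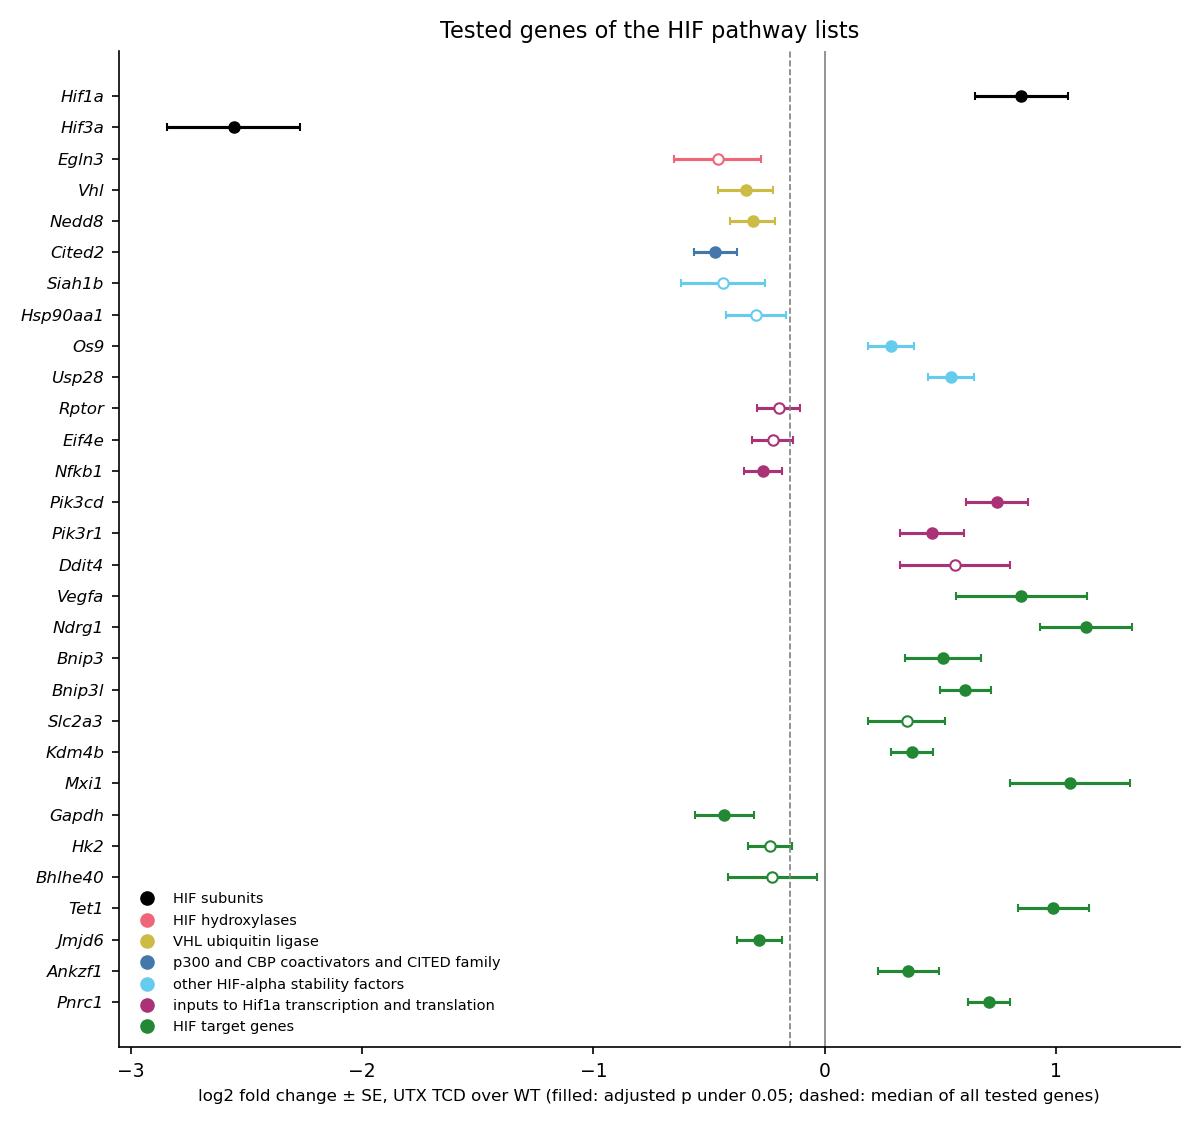
Log2 fold change of UTX TCD over WT ± SE (horizontal axis) for each tested gene of the HIF pathway lists, coloured by list, filled where the edgeR adjusted p was under 0.05. The dashed line is the median of all tested genes (-0.15), and 9 of 14 target genes lie to the right of 0 as filled points, with Hif3a farthest to the left.

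Each member was finally matched to the tested genes with the most similar profile of log2 CPM over the 6 libraries. Libraries of a genotype cluster, so high correlations are common in this table: 443 genes had a Pearson r over 0.95 with Hif1a, 488 with Vhl, 238 with Hif3a, 154 with Cited2 and 8 with Egln3. Egln3 had the fewest close matches, and the reason was not tested. Closest to Hif1a were Cd48, a surface adhesion receptor (r = 0.999), Zbtb10 (0.998) and the receptor gene P2ry10 (0.998). P2ry10 had 134, 122 and 137 CPM in WT replicates 1 to 3 and 291, 680.2 and 272 CPM in UTX TCD replicates 1 to 3, the same order of libraries as Hif1a over a wider range. Closest to Hif3a were Cd200 (0.999), Stra6 (0.998) and Siglecf (0.998). Siglecf had 1.82 to 2.60 CPM in WT and 0 CPM in all UTX TCD libraries. Stra6 had 1.04 to 1.33 CPM in UTX TCD libraries, so both r values rest on low counts. Closest to Vhl were Pomgnt1 (0.9996), Mfsd5 (0.996) and Mmd (0.996). Closest to Egln3 were Rnpep (0.994), Ddx55 (0.984) and Camsap1 (0.981), and closest to Cited2 were Abcd3 (0.999), Dbf4 (0.997) and Rimklb (0.995). Rimklb was also low, at 0.32 to 0.52 CPM in UTX TCD libraries.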

How the data were processed

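The authors deposited raw counts of reads per gene for 6 libraries, 1 per mouse. The submitters' processing notes name FastQC, HISAT2, HTSeq and the build mm10. The sources used here do not give versions, annotation, strand setting or the rule that chose the 4162 listed genes. Because the table looks selected on the genotype difference, column totals (8363326 to 10288306) are not library depths and adjusted p-values are too small. Genes were tested with edgeR 4.0.16 in R 4.3.3 (quasi-likelihood F test, genotype only, minimum count 10, minimum total count 15, TMM, Benjamini-Hochberg over 4118 tested genes, 44 filtered out). SE is the absolute log2 fold change over the square root of F. Alternatives used DESeq2 1.42.0, limma 3.58.1, other scalings, no filter, a replicate term and each library left out. Their use on the pathway lists was added after seeing the data. The code was tested on simulated data. Named genes were the 5 members, Kdm6a, tested regulators, the 4 genes with the smallest p in each direction of the input and target lists, and the 3 closest profiles per member. Members and lists were chosen with earlier results of these data known. Coordinates come from GENCODE vM21 (GRCm38, the sequence of mm10) and promoter sequences from RefSeq (GRCm38.p6), where all 5 genes matched.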

Additional observations from a re-analysis of the deposited data

How the results depend on the processing

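No direction changed among the 5 genes and 4 ratios in any alternative. Kdm6a and the other tested genes of the pathway lists kept their direction too. With only 20 of 4118 tested genes within 0.1 of 0, a stable direction does not set the 5 genes apart. Hif3a and Cited2 passed throughout. Hif1a stayed at 0.85 but missed the threshold with every protein-coding gene counted as a test, and ran from 0.55 to 1.00 with 1 library left out. Vhl missed it with RLE scaling (-0.30), upper-quartile scaling (-0.27), DESeq2 (-0.30) and every protein-coding gene counted (-0.34), and ran from -0.43 to -0.24 with 1 library left out. Egln3 passed with gap-centred scaling (-0.54), limma-voom (-0.48) and the replicate block (-0.48, edgeR adjusted p = 0.027), and ran from -0.68 to -0.36 with 1 library left out. The cause of these shifts was not tested. The labels do not say that replicate numbers pair the mice. Same-numbered libraries correlated at 0.28, -0.28 and 0.18 in their deviations from the group means. Not every library correlated best with its own number. Deviations of 3 libraries from their own mean are not independent, so these correlations cannot decide whether mice were paired. The block gave 1607 higher and 1026 lower genes. All genes called numbered 1832 lower with gap-centred and 725 with upper-quartile scaling, 630 higher and 296 lower with every protein-coding gene counted, and 730 to 1824 higher and 351 to 1458 lower with 1 library left out. Hif3a, with 11 to 13 reads per UTX TCD library, is limited by counting error.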
